A study of Homo sapiens with 8 samples.

Results

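The ERBB receptors and their inhibitors were examined as 7 named genes among the 56632 genes of the count table. These genes were picked by name, not by a rule on their values, and with earlier results of these data known. They are the receptors EGFR, ERBB2, ERBB3 and ERBB4, and the inhibitors ERRFI1, LRIG1 and LRIG3. Poly A+ RNA was sequenced from 4 related human mammary epithelial cell lines, with 2 biological replicates of each line and 8 libraries in all. M1 is MCF10A, an immortalized line that does not form tumors. M2 (MCF10AT1k.cl2) came from MCF10A transfected with the activated T24 form of HRAS and was selected by growth as a xenograft, and M3 (MCF10Ca1h) and M4 (MCF10CA1a.cl1) came from carcinomas that arose in xenografts of M2. M2, M3 and M4 are each a single derived line, so that a difference between lines is a difference between those derivatives. All cells were grown for 8 days as acini in Matrigel, in medium with 2% horse serum, insulin, hydrocortisone and cholera toxin. M1 and M2 received EGF, a ligand of EGFR, at 10 ng/ml, and M3 and M4 received none. Between M3 or M4 on the one hand and M1 or M2 on the other, line and EGF supply cannot be told apart, whereas M1 with M2, and M3 with M4, shared their medium.

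The ERBB family comprises receptor tyrosine kinases that bind ligands of the EGF and neuregulin families, pair with each other, and pass the signal to the RAS/ERK and PI3K/AKT pathways. ERBB2 has no known soluble ligand and ERBB3 has little kinase activity of its own, so these receptors act mainly through their partners, and ERBB3 is known for its many docking sites for PI3K. Cells restrain the family with inducible inhibitors: ERRFI1 (also called MIG6) binds the kinase domain and blocks its activation, LRIG1 binds the receptors at the membrane and promotes their degradation, and LRIG3 is a relative of LRIG1 whose effect on ERBB receptors is less settled.

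ERBB3 differs from the other receptors at a site of the kinase domain, and the coding sequence there is shown because ERBB3 was also the receptor whose transcript differed most between the lines. In each line below the 24 bases run 5′ to 3′ on the coding strand of the GRCh37 genome through the catalytic loop, and the capitals mark the codon that in an active kinase encodes the catalytic aspartate.

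EGFR: caccgcGACctggcagccaggaac
ERBB2: cacaggGACttggccgctcggaac
ERBB3: catagaAACctggctgcccgaaac
ERBB4: catcggGATttggcagcccgtaat

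The capitals read as aspartate in EGFR (codon 837, chr7:55259445-55259468, plus strand), in ERBB2 (codon 845, chr17:37881335-37881358, plus strand) and in ERBB4 (codon 843, chr2:212295769-212295792, minus strand). In ERBB3 (codon 834, chr12:56491602-56491625, plus strand) the codon reads as asparagine. All 4 stretches lie in coding exons. They come from the reference genome, not from the reads of these lines.

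Library totals ran from 69669945 to 107350288 counts, and a level in CPM is the count scaled to a fixed library total, adjusted by the TMM method. Markers of basal mammary epithelium (KRT5, KRT14, KRT17, TP63 and ITGB4) summed to 5937 to 14155 CPM over the libraries, and those of epithelium in general (EPCAM, CDH1, KRT18 and KRT8) to 1372 to 4759 CPM. Of the markers of other cells, 6 fibroblast genes summed to 6.43 to 74.4 CPM, 4 leukocyte genes to 4.06 to 51.4 CPM and 2 endothelial genes to 0.326 CPM or less. The fibroblast sum came mostly from DCN (0.0128 to 60.2 CPM, highest in M2) and COL1A1 (6.07 to 25.5 CPM), with COL1A2 at 0 in all libraries. CD68 held nearly all of the leukocyte sum (4.03 to 51.4 CPM, highest in M4), with PTPRC at 0.0366 CPM or less. HRAS did not separate M2 from M1 (log2 fold change 0.10 ± 0.15 SE, edgeR adjusted p = 0.736), but was higher in M3 (1.03 ± 0.15, adjusted p = 0.00380) and M4 (1.23 ± 0.15, adjusted p = 0.00119) than in M1. The labels of 2 libraries were unsettled, because an expression table of the study exchanges M1 replicate 2 and M2 replicate 1. The sample labels were used throughout. Results under the exchanged assignment are given only for the members and the ligands, and not for the other gene lists or the genes near the members. The M2 replicates were much closer to each other than those of the other lines, with a biological coefficient of variation (the square root of edgeR's common dispersion) of 0.0574 in M2 and of 0.271 to 0.377 in the other lines, and the fit pools the spread over all 4 lines.

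Of the 7 genes, 6 passed the filter on low counts and were tested, and ERBB4 was not. A gene was called changed when the adjusted p of edgeR's quasi-likelihood test was under 0.05 and the absolute log2 fold change was above 1. In M3 against M1, 1 of the 6 was called (ERBB3, lower), against 13.5% of the 18431 genes tested, and 3 of 6 (ERBB2, ERBB3 and ERRFI1) had an adjusted p under 0.05 whatever their fold, against 21.3% of all genes. In M4 against M1, 1 of 6 was called (LRIG1, lower), against 20.7% of all genes. In M3 against M2, 1 of 6 was called (ERBB3, lower), against 4.15%, and in M4 against M3, 1 of 6 was called (ERBB3, higher), against 10.3%, and 2 of 6 (ERBB3 and ERRFI1) passed by adjusted p alone, against 16.8%. With edgeR 0 of 6 were called in M2 against M1, where 3.37% of all genes were called. There 2 of 6 had an unadjusted p under 0.05, against 23.3% of all genes, and DESeq2 called 0. In M4 against M2 edgeR also called 0 of 6, against 13.9% of all genes, where 2 had an unadjusted p under 0.05 (37.4% of all genes) and DESeq2 called 2. At most 1 of the 6 was called in any comparison, so the results below are those of single genes. The libraries of a pair of lines did not overlap in 61.0% of all genes for M2 and M1, 59.4% for M3 and M1, 67.3% for M4 and M1, 59.0% for M3 and M2, 73.0% for M4 and M2 and 60.2% for M4 and M3, so that a lack of overlap alone is common.

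**Figure D1:**
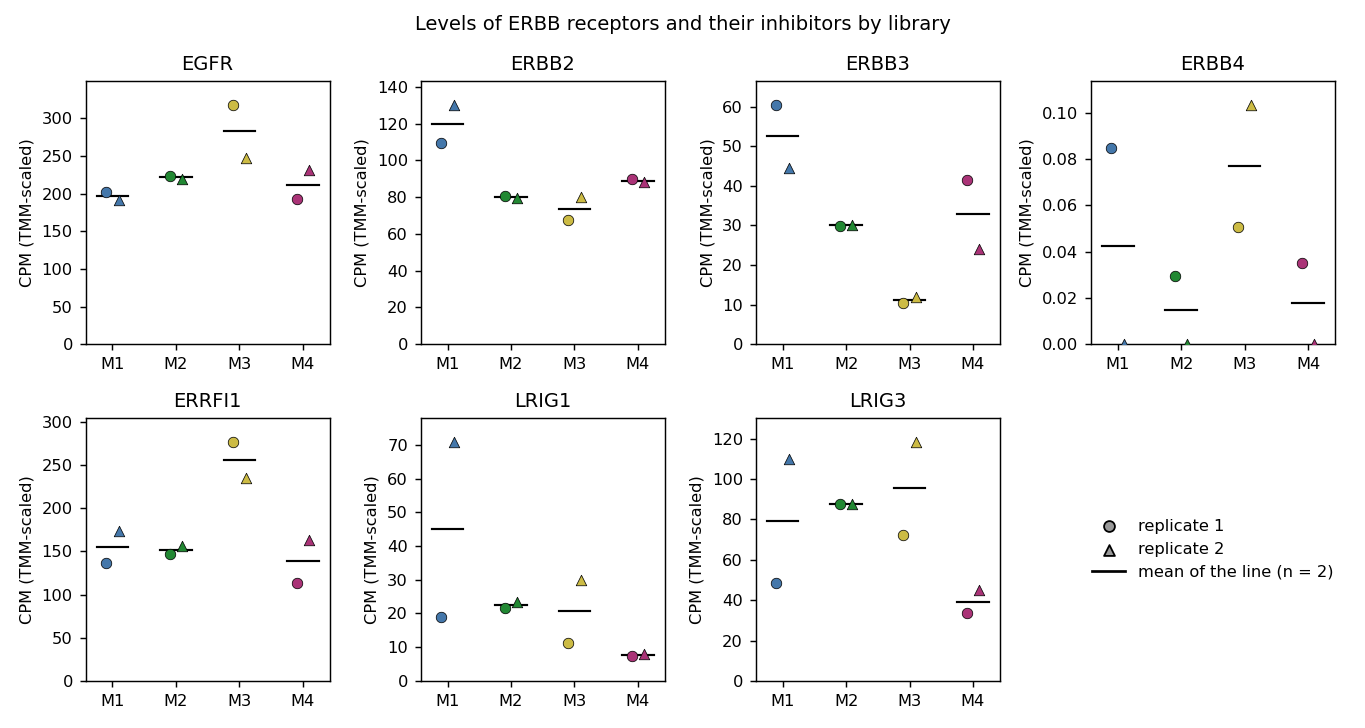
Levels of the 7 genes in CPM (vertical axes, linear from 0) in the 4 lines (horizontal axes). Circles and triangles are replicates 1 and 2, and the bar is the mean of the line (n = 2). ERBB3 is lowest in both M3 libraries, at 10.3 and 11.96 CPM, LRIG1 is lowest in both M4 libraries, at 7.24 and 8.10 CPM, and ERBB4 stays below 0.11 CPM in every library.

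ERBB3 was lowest in M3. ERBB3 (ENSG00000065361, chr12:56470583-56497289, plus strand, GRCh37), the receptor that binds neuregulins and signals through its partners, was at 60.4 and 44.5 CPM (M1), 29.9 and 30.2 (M2), 10.3 and 11.96 (M3) and 41.5 and 24.1 (M4). Both M3 libraries lay below all of the others. Relative to M1 the level in M3 was 4.70-fold lower (log2 fold change -2.23 ± 0.28 SE, edgeR adjusted p = 0.00219), and relative to M2 it was 2.69-fold lower (-1.43 ± 0.27, adjusted p = 0.0256). M4 exceeded M3 2.94-fold (1.56 ± 0.27, adjusted p = 0.0109), although both lines were grown without EGF. The order of the means was M1, M4, M2 and M3. Of the neighbours in this order, M1 and M4 were not separated (log2 fold change -0.68, adjusted p = 0.0871), nor were M4 and M2 (adjusted p = 0.756), whereas M2 and M3 were. M2 against M1 gave a log2 fold change of -0.81 ± 0.26 with an adjusted p of 0.125, the replicates not overlapping.

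The lower level in M3 than in M1 kept its call when each library was left out in turn (log2 fold change -2.43 to -1.99, adjusted p = 0.00233 to 0.0159), but under the exchanged labels it was lost (log2 fold change -2.02, adjusted p = 0.0695). The difference between M3 and M2 was about as large without either M2 replicate or either M3 replicate (log2 fold change -1.54 to -1.32), but was not called there (adjusted p = 0.0785 to 0.164), nor under the exchanged labels (-1.74, adjusted p = 0.0995). That between M4 and M3 was not called without M3 replicate 1 (1.45, adjusted p = 0.0584), without M4 replicate 1 (1.11, adjusted p = 0.0523) or under the exchanged labels (1.56, adjusted p = 0.0705). The M4 replicates differed 1.72-fold, and edgeR called M4 lower than M1 without M4 replicate 1 (-1.11, adjusted p = 0.0260) but not without M4 replicate 2 (-0.32, adjusted p = 0.398).

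The summed level of luminal markers was highest in M1 and lowest in M3, but none of the single genes had its lowest mean in M3. The sum over KRT19, GATA3, ESR1, FOXA1 and ELF5 was 91.4 and 106.95 CPM (M1), 47.1 and 48.7 (M2), 24.01 and 23.2 (M3) and 33.1 and 33.4 (M4). GATA3, a transcription factor of luminal cells, held most of this sum in M1 (74.7 and 98.4 CPM), and ELF5 was at 0 to 0.122 CPM. GATA3 overlapped between M3 (18.0 and 15.4 CPM) and M4 (14.7 and 16.5 CPM). FOXA1, another luminal transcription factor, had a different order, at 8.88 and 5.45 CPM (M1), 2.86 and 3.03 (M2), 3.37 and 6.64 (M3) and 15.1 and 15.1 (M4). ESR1, the estrogen receptor, was higher in M4 (2.42 and 1.012 CPM) than in M2 (0.687 and 0.768 CPM). In bulk RNA, fewer cells of a type and less RNA per cell cannot be told apart, and the part of the luminal genes in the ERBB3 result was not tested.

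EGFR was abundant in all 4 lines and differed by less than 2-fold between them. EGFR (ENSG00000146648, chr7:55086710-55279321, plus strand), the receptor of EGF, TGF-alpha and amphiregulin, was at 203 and 192 CPM (M1), 223 and 220.0 (M2), 318 and 248 (M3) and 193 and 232 (M4). M3 held the highest levels, and its libraries did not overlap with those of any other line. With edgeR none of the 6 differences passed the test, since the adjusted p ran from 0.0603 for M3 against M1 (log2 fold change 0.52 ± 0.17) to 0.810 for M4 against M2 (-0.06 ± 0.17). The difference between M3 and M1 lay near the threshold: its adjusted p was 0.0447 with DESeq2, 0.0451 with no filter on low counts and 0.0310 without M3 replicate 2 (log2 fold change 0.69), against 0.177 without M3 replicate 1 (0.34). In order of the means (M3, M2, M4 and M1) no pair of neighbours was separated. The 95% intervals of the 6 log2 fold changes lay between -0.80 and 0.91, so that a change of 2-fold between any of the lines lay outside them.

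ERBB2 was highest in M1 under the sample labels. ERBB2 (ENSG00000141736, chr17:37844167-37886679, plus strand), the partner preferred by the other receptors, was at 109.6 and 130.1 CPM (M1), 80.7 and 79.6 (M2), 67.4 and 79.9 (M3) and 89.7 and 88.3 (M4). Both M1 libraries lay above the 6 others under these labels. Under the exchanged labels the log2 fold change of M2 against M1 was 0.14, so the order of these lines depended on the labels. The level in M3 was 1.63-fold lower than in M1 (log2 fold change -0.70 ± 0.15, edgeR adjusted p = 0.0140), a difference that passed the test but not the rule of 2-fold. M2 against M1 (-0.58 ± 0.15, adjusted p = 0.0645) and M4 against M1 (-0.43 ± 0.14, adjusted p = 0.0556) did not pass, and no neighbours in the order M1, M4, M2 and M3 were separated. Without M1 replicate 2 the log2 fold change between M3 and M1 was -0.57 (adjusted p = 0.0536), and under the exchanged labels it was -0.37 (adjusted p = 0.513). The exons of ERBB2 share 571 bases with MIEN1 and 144 bases with PGAP3, both on the opposite strand, and where the counting did not use strand the reads of those bases cannot be told apart.

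ERBB4 was close to absent. ERBB4 (ENSG00000178568, chr2:212240442-213403565, minus strand), a neuregulin receptor with an active kinase, had 7 and 0 counts (M1), 3 and 0 (M2), 4 and 9 (M3) and 4 and 0 (M4). A count of 0 allows up to 3 counts, which is 0.0264 to 0.0426 CPM depending on the library and covers counting error only. No fold is given at these levels, and differences between the lines were not detectable at this depth.

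**Figure D2:**
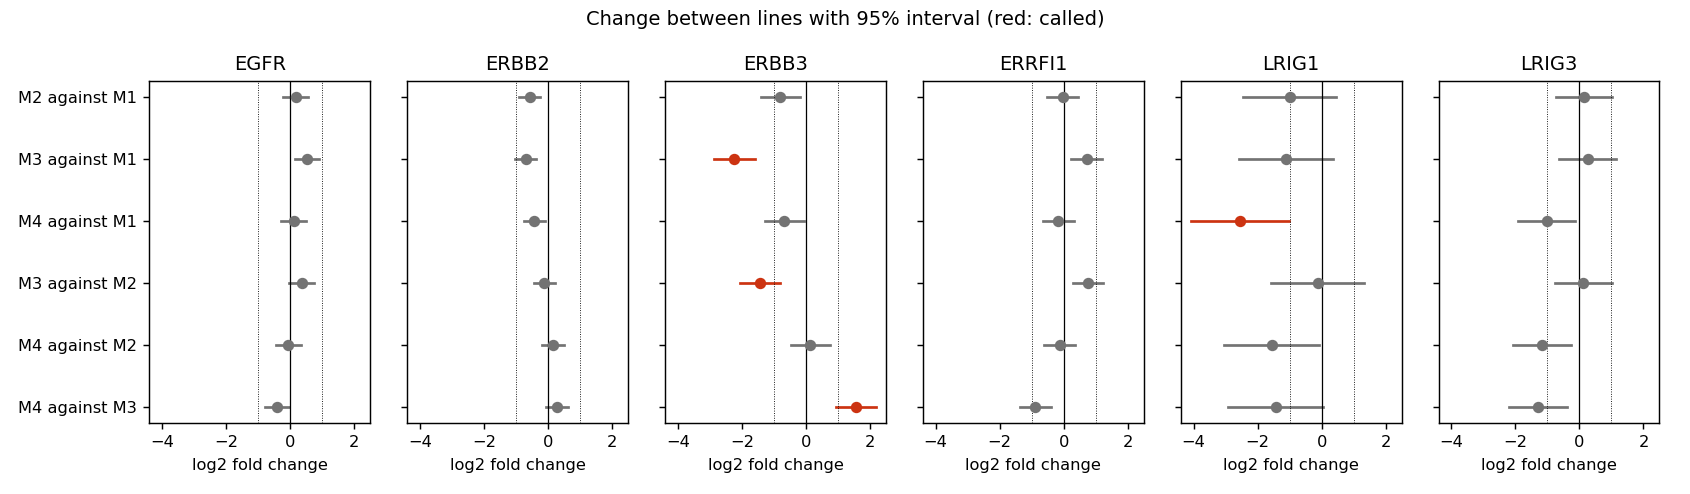
Log2 fold change of each tested gene in the 6 comparisons of lines (horizontal axes; points are the edgeR estimates and bars their 95% intervals, with dotted lines at the fold rule of 1 and -1). Red marks the 4 called differences, 3 of ERBB3 and 1 of LRIG1, and the intervals of LRIG1 are the widest.

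Set against each other per kilobase of annotated exon, EGFR held its largest share of the receptor transcripts in M3. EGFR made up 43.5% ± 1.64 (SD, n = 2) of the summed CPM per kilobase of the 4 receptors in M1, and 57.4% ± 0.139 (M2), 68.4% ± 6.31 (M3) and 53.7% ± 5.73 (M4) in the derived lines. The ERBB3 share was 15.7% ± 3.35 (M1), 10.6% ± 0.170 (M2), 3.71% ± 0.689 (M3) and 11.4% ± 4.51 (M4). EGFR therefore stood 2.47-fold and 3.17-fold above ERBB3 per kilobase in the libraries of M1, 5.50-fold and 5.36-fold (M2), 22.6-fold and 15.2-fold (M3) and 3.41-fold and 7.06-fold (M4). The M3 libraries lay above the others in this ratio, which is made of the same values as the levels and was not tested separately. ERBB2 made up 40.8% ± 5.0 in M1 and 27.8% ± 5.61 in M3. With the length of the canonical transcript in place of all annotated exons, the mean shares of EGFR and ERBB2 changed places in M1 (35.9% and 47.3%). In M2, M3 and M4 EGFR held the larger mean share by either length. Single libraries differed from the means. ERBB2 exceeded EGFR in M4 replicate 1 by canonical length (42.3% against 41.8%) and in M1 replicate 2 by annotated exons (44.3% against 42.3%).

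**Figure D3:**
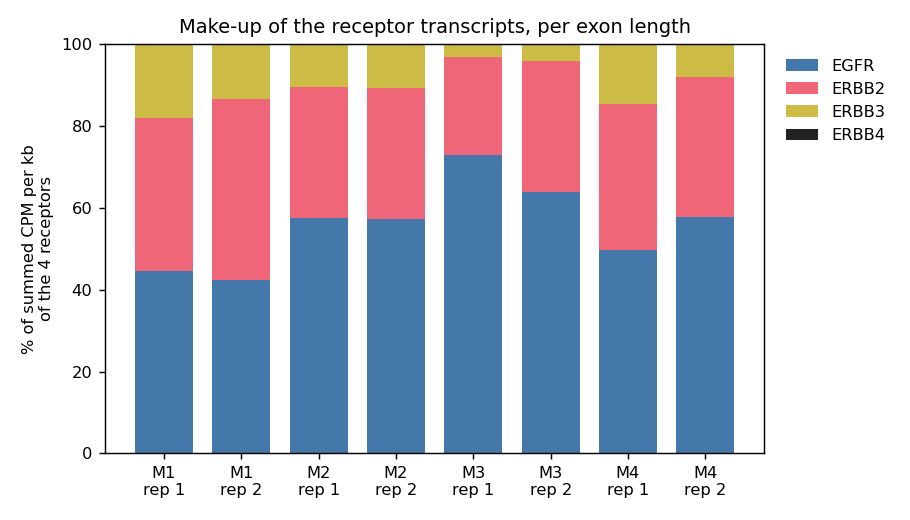
Share of each receptor in the summed CPM per kilobase of EGFR, ERBB2, ERBB3 and ERBB4 (vertical axis, percent) in each of the 8 libraries (bars). The ERBB3 share is smallest in the M3 libraries, with a mean of 3.71%, and ERBB4 is too small to see.

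Among the inhibitors, ERRFI1 was highest in M3. ERRFI1 (ENSG00000116285, chr1:8064464-8086369, minus strand), which is itself induced by signalling from the receptors, was at 137 and 174 CPM (M1), 147 and 156 (M2), 277 and 235 (M3) and 114 and 163 (M4). Both M3 libraries lay above all of the others, and the other 3 lines overlapped. M3 exceeded M1 1.65-fold (log2 fold change 0.72 ± 0.21, edgeR adjusted p = 0.0444) and M4 was 1.85-fold below M3 (-0.89 ± 0.21, adjusted p = 0.0275). Both differences passed the test without reaching 2-fold. Under the exchanged labels neither passed (log2 fold change 0.85, edgeR adjusted p = 0.121, and -0.89, adjusted p = 0.0641). M3 against M2 was of similar size (0.75 ± 0.21) with an adjusted p of 0.0807, and M1, M2 and M4 were not separated from each other. With 1 library left out, the adjusted p ran from 0.0330 to 0.166 for M3 against M1, and from 0.0240 to 0.142 for M4 against M3, so that neither difference held in every subset. Per kilobase of exon ERRFI1 was the most abundant of the 7 transcripts in every line, with 37.2, 36.3, 61.2 and 33.1 CPM per kilobase in M1 to M4 against 12.4, 13.9, 17.8 and 13.3 for EGFR.

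LRIG1 was lowest in M4. LRIG1 (ENSG00000144749, chr3:66429221-66551687, minus strand) was at 19.1 and 71.0 CPM (M1), 21.8 and 23.3 (M2), 11.3 and 30.1 (M3) and 7.24 and 8.10 (M4). Both M4 libraries lay below all of the others, but the replicates of M1 differed 3.71-fold and those of M3 2.65-fold. M4 was 5.87-fold lower than M1 (log2 fold change -2.55 ± 0.65, edgeR adjusted p = 0.0240). Against M2 the log2 fold change was -1.55 ± 0.63 (adjusted p = 0.120), and against M3 it was -1.43 ± 0.63 (adjusted p = 0.160). DESeq2 called both of these differences (adjusted p = 0.0185 and 0.0358), and edgeR called that between M4 and M2 in a fit of these lines alone (adjusted p = 0.00153), without either M1 replicate (adjusted p = 0.0376 and 0.0343) and under the exchanged labels (-2.62, adjusted p = 0.0330). Without M3 replicate 2 the log2 fold change of M4 against M3 was -0.57 (adjusted p = 0.610). With edgeR no neighbours in the order of the means (M1, M2, M3 and M4) were separated.

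The size of the LRIG1 difference between M4 and M1 depended on M1 replicate 2, whose label is unsettled: without it the log2 fold change was -1.32 (adjusted p = 0.0934), and under the exchanged labels -1.41 (adjusted p = 0.166). The call was also lost without either M2 replicate (adjusted p = 0.0602 and 0.0609) or either M4 replicate (adjusted p = 0.117 and 0.118), and in a fit of M1 and M4 alone (adjusted p = 0.0538). The exons of LRIG1 share 2669 bases with SLC25A26 on the opposite strand, which had 1611 to 2567 counts, against 632 and 822 counts of LRIG1 in M4, and without strand the reads of those bases cannot be told apart.

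LRIG3 was lowest in M4 as well, without passing the test in edgeR's main fit. LRIG3 (ENSG00000139263, chr12:59265931-59314285, minus strand) was at 48.7 and 110.2 CPM (M1), 87.5 and 87.8 (M2), 72.2 and 119 (M3) and 33.5 and 44.8 (M4). The M4 libraries lay below the 6 others, and the M1 and M3 libraries again spread widely, replicate 2 exceeding replicate 1 by 2.26-fold and 1.64-fold. M4 gave log2 fold changes of -1.02 ± 0.39 against M1 (edgeR adjusted p = 0.0812), -1.16 ± 0.39 against M2 (adjusted p = 0.0679) and -1.28 ± 0.39 against M3 (adjusted p = 0.0603). DESeq2 called all 3 differences, with adjusted p of 0.0272, 0.0135 and 0.00621. With the replicate block edgeR called M4 lower than M2 and than M3. It also called M4 lower than M2 in a fit of these lines alone and under the exchanged labels. The difference from M1 depended on M1 replicate 2, whose label is unsettled, since without that library the log2 fold change was -0.31 (adjusted p = 0.504). Without M1 replicate 1 edgeR called M4 lower than each of the other lines (-1.48, -1.14 and -1.275, adjusted p = 0.0139, 0.0205 and 0.0183). M3, M2 and M1, the neighbours above M4, were not separated (adjusted p = 0.659 to 0.888).

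**Figure D4:**
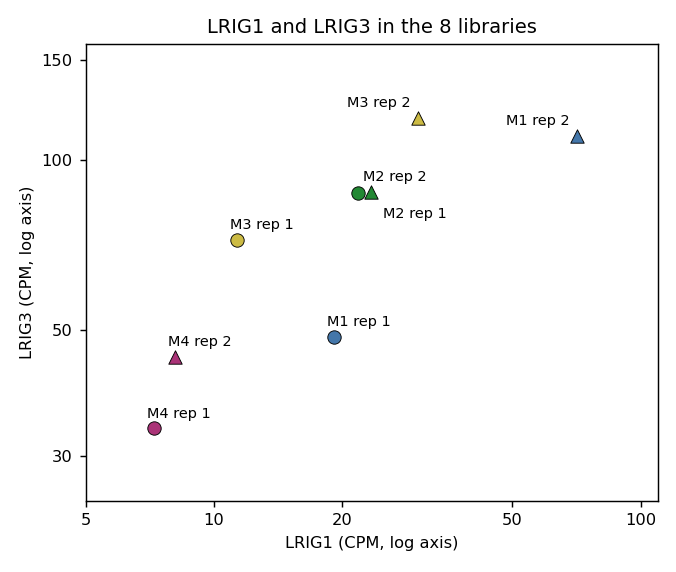
LRIG3 against LRIG1 in the 8 libraries (CPM, both axes logarithmic; color is the line, circles and triangles are replicates 1 and 2). The M4 libraries lie at the lower left, and replicate 2 lies above replicate 1 in both genes in every line, by 2.65-fold or more for LRIG1 in M1 and M3 and by 1.12-fold or less in M2 and M4.

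Across the 8 libraries the levels of LRIG1 and LRIG3 had a Pearson correlation of 0.828 on the log2 scale. The correlation of ERRFI1 with EGFR was 0.853, that of ERBB3 with EGFR -0.902, that of ERBB3 with ERRFI1 -0.866, and that of ERBB2 with ERBB3 0.774. The points are pairs of replicates of 4 lines, so these values describe the order of the lines more than independent samples. Among 9372 genes with a mean of at least 10 CPM, the genes most like each member over the 8 libraries were GTF3A, STN1 and METTL5 for EGFR (r = 0.975, 0.973 and 0.965), and GBA2, TSTD2 and INPPL1 for ERBB2 (r = 0.979, 0.976 and 0.973). For ERBB3 they were SPG7, LRRC14 and CFAP410 (r = 0.975, 0.975 and 0.973), and for ERRFI1 LINC02210, HNRNPLL and IRF2 (r = 0.972, 0.966 and 0.954). For LRIG1 they were RBM4, APPL2 and EFNA5 (r = 0.970, 0.958 and 0.958), and for LRIG3 ABCA2, WDR35 and GLCE (r = 0.985, 0.980 and 0.974). None of these genes is a member of the family or of the lists below.

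Most of the ligands were called in M3 and M4 relative to M1. Of 10 ligand genes tested, 6 were called higher in M3 than in M1, and 0 lower, against 8.02% of all genes called higher and 5.51% called lower. In M4 against M1, 5 were called higher and 1 lower, against 9.48% and 11.2% of all genes. The median log2 fold change of the ligands was 2.12 in M3 and 1.91 in M4, beside -0.02 over all genes in each comparison. EREG (epiregulin) was at 0.749 and 0.768 CPM (M1), 7.20 and 7.86 (M2), 47.8 and 87.6 (M3) and 79.2 and 100.1 (M4). It rose in M3 (log2 fold change 6.48 ± 0.35, edgeR adjusted p = 0.000244) and in M4 (6.88 ± 0.35, adjusted p = 9.62e-05), with no overlap between any of the other lines and M1. AREG (amphiregulin) rose from 25.8 and 90.4 CPM in M1 to 607 and 812 in M3 (3.61 ± 0.56, adjusted p = 0.00589), and TGFA from 21.4 and 12.1 CPM to 170.5 and 129 (3.16 ± 0.29, adjusted p = 0.000819).

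HBEGF, a ligand of EGFR and ERBB4, was highest in M4, at 218 and 219.8 CPM against 5.22 and 8.34 in M1 (log2 fold change 5.01 ± 0.35, adjusted p = 0.000174) and 23.4 and 41.9 in M3 (2.75 ± 0.31, adjusted p = 0.00300). NRG1 (neuregulin 1), a ligand of ERBB3 and ERBB4, was at 0.701 and 1.13 CPM in M1 and 21.7 and 9.47 in M4 (4.08 ± 0.46, adjusted p = 0.000888). NRG4, a ligand of ERBB4, was lower in M4, at 1.89 and 1.92 CPM, than in M1, at 9.44 and 4.54 (-1.87 ± 0.36, adjusted p = 0.00717). In M2 against M1, which shared the medium with EGF, 2 of 10 ligands were called higher, against 2.26% of all genes. They were EREG (3.31 ± 0.31, adjusted p = 0.00605) and AREG (2.68 ± 0.54, adjusted p = 0.0384). Under the exchanged labels neither of them was called in M2 against M1, and edgeR called 2 of 10 ligands in M3 against M1 and 4 in M4 against M1. The share of all genes called under that exchange is not given here. Over the alternatives, the calls among all genes ran from 219 to 3918 in M3 against M1 and from 1559 to 5779 in M4 against M1. The lower ligand counts are therefore not read as particular to the ligands.

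Of 6 sheddases and their regulators, which release ligands from the membrane, 1 was called in M4 against M1, RHBDF2, which was higher (log2 fold change 1.04 ± 0.30, adjusted p = 0.0316), beside 9.48% of all genes called higher. In M3 against M1 edgeR called 0 of 6, where 3 had an unadjusted p under 0.05 and DESeq2 called 0.

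Among 17 further regulators of receptor removal and dephosphorylation, 2 were called higher and 1 lower in M3 against M1, and 3 higher in M4 against M1. Of all genes 8.02% were called higher and 5.51% lower in M3, and 9.48% and 11.2% in M4. SH3KBP1, an adaptor of CBL in receptor endocytosis, rose from 29.99 and 52.2 CPM in M1 to 194 and 179.6 in M3 (2.19 ± 0.25, adjusted p = 0.00168) and 179.8 and 151 in M4 (2.01 ± 0.25, adjusted p = 0.00134). UBASH3B, a phosphatase that binds CBL, rose by 1.67 ± 0.13 in M3 (adjusted p = 0.000547) and 2.46 ± 0.14 in M4 (adjusted p = 9.62e-05). CBLB, a ubiquitin ligase, fell by 1.15 ± 0.17 on the log2 scale in M3 (adjusted p = 0.00416). The median of the list was 0.00 in M3 and 0.26 in M4, beside -0.02 over all genes in each.

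Downstream of the receptors, 24 adaptors and proximal effectors were tested. In M3 against M1, 3 were called higher and 3 lower, and in M4 against M1, 2 higher and 5 lower, beside the same shares of all genes (8.02% and 5.51% in M3, 9.48% and 11.2% in M4). The lower genes included all 3 regulatory subunits of PI3K in the list. STAT5A and SHC3 were also called lower in M4 (log2 fold change -3.65 ± 0.66 and -2.16 ± 0.66, edgeR adjusted p = 0.00564 and 0.0390), SHC3 at means of 0.116 CPM in M4 and 0.534 in M1. The 2 called higher in M4 were GRB7 (1.80 ± 0.37, adjusted p = 0.0101) and PIK3CB, a catalytic subunit of PI3K (1.00 ± 0.20, adjusted p = 0.00766). PIK3R1 went from 166 and 201 CPM in M1 to 54.97 and 74.5 in M3 and 17.5 and 22.0 in M4 (log2 fold change -1.505 ± 0.20 and -3.22 ± 0.21, adjusted p = 0.00270 and 0.000160), and PIK3R3 and PIK3R2 were called lower in both lines (PIK3R2 and PIK3R3 in M4 are named here after their values were seen). SHC4, an adaptor of the SHC family, rose in M3 by 3.81 ± 0.42 (adjusted p = 0.00147), and SHC1 by 1.00 ± 0.19 (adjusted p = 0.0107). The medians of the list were 0.20 in M3 and 0.02 in M4.

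Of 8 membrane partners and chaperones, HSP90AA1, a chaperone that stabilizes ERBB2, was called higher than M1 in each of the other lines (log2 fold change 1.54 ± 0.24 in M2, 1.42 ± 0.24 in M3 and 1.18 ± 0.24 in M4, adjusted p = 0.0145, 0.00650 and 0.00836). MUC1, a mucin that associates with the receptors, went from 56.5 and 32.2 CPM in M1 to 6.35 and 5.80 in M3 (-2.87 ± 0.33, adjusted p = 0.00163) and to 1.78 and 0.999 in M4 (-4.98 ± 0.37, adjusted p = 0.000220). Of 10 transcription factors known to act on ERBB genes, 4 were called lower in M3 and 4 in M4 relative to M1, against 5.51% and 11.2% of all genes. GATA3 was lower in both (log2 fold change -2.37 ± 0.18 and -2.47 ± 0.18, adjusted p = 0.000498 and 0.000220), as was EHF (-2.09 ± 0.29 and -1.83 ± 0.29, adjusted p = 0.00327 in each). ERBB3 itself was called lower than M1 in M3 but not in M4 in the main fit. Without M4 replicate 1 its log2 fold change in M4 against M1 was -1.11. GATA3 was at similar levels in M3 (18.0 and 15.4 CPM) and M4 (14.7 and 16.5 CPM). Whether GATA3 or the other factors had a part in the ERBB3 levels was not tested.

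The other receptor tyrosine kinases, of which 29 were tested, moved in both directions. In M3 against M1, 5 of the 29 were called higher and 1 lower, and in M4 against M1, 3 higher and 7 lower. These counts stand beside 8.02% of all genes called higher and 5.51% lower in M3, and 9.48% and 11.2% in M4. MET, the receptor of hepatocyte growth factor, was at 47.9 and 64.5 CPM in M1, 210 and 126 in M3 and 229 and 249 in M4. It rose in both lines (log2 fold change 1.58 ± 0.25 and 2.09 ± 0.26, adjusted p = 0.00554 and 0.00126), as did its relative MST1R (1.88 ± 0.18 and 2.80 ± 0.19, adjusted p = 0.00100 and 0.000169). EPHA2 rose in M4 to 411 and 316 CPM from 76.0 and 43.9 in M1 (2.60 ± 0.28, adjusted p = 0.000711). NTRK2 was lower in M4, at 0.300 and 0.474 CPM, than in M1, where the replicates were at 9.78 and 87.0 CPM (-6.99 ± 1.30, adjusted p = 0.00747), and like LRIG1 it was higher in replicate 2 of M1 and of M3.

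**Figure D5:**
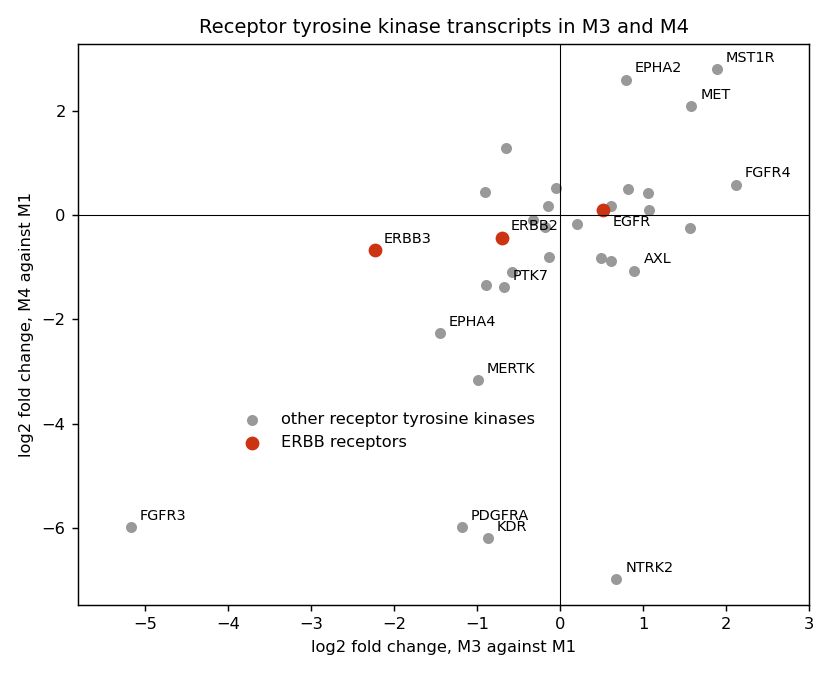
Log2 fold change of the 3 tested ERBB receptors (red) and of 29 other receptor tyrosine kinases (grey) in M3 against M1 (horizontal axis) and in M4 against M1 (vertical axis). EGFR and ERBB2 lie near the origin, ERBB3 to its left at -2.23 and -0.68, and MET and MST1R are higher in both lines; both axes share the M1 libraries.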

How the data were processed

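The deposited values are the expected counts per gene that the authors estimated with RSEM after trimming with Trimmomatic and alignment with STAR to GRCh37, with GENCODE as annotation; Picard is also named in the submitters' processing notes. Whether counting used strand is not given in the sources used here. Poly A+ RNA of 8 libraries was sequenced paired-end, and 0 columns belonged to other series. Of the values, 12.8% were not whole and were rounded. Genes were matched by identifier to GENCODE release 44 on GRCh37 (94.7% of the 29419 genes with a count), which also gave exon lengths and sequence.

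All 8 libraries were fitted in 1 model with 1 coefficient per line, with edgeR 4.0.16 in R 4.3.3 (TMM, filterByExpr, robust quasi-likelihood test) and Benjamini-Hochberg adjustment over 18431 genes. Fold changes are edgeR's, and standard errors are those its F statistic implies. In the main fit, errors and p-values rest on the spread between 2 replicates a line, pooled over all 4 lines and not only the 2 compared. Totals ran from 69669945 to 107350288 counts. The steps were tested on simulated data. DESeq2 1.42.0 was an alternative, as were a replicate block, other size factors, no filter on low counts, fits of 2 lines alone, the exchanged labels, no fold rule, canonical transcript length and leaving out each library. Leaving out both libraries of unsettled label was added after seeing the data. Summaries and plots were made in Python 3.11.15 (pandas 2.3.3, numpy 2.4.6, matplotlib 3.10.9).

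The members, the 7 gene lists and the markers were chosen with earlier results of these data known. Named genes are the members, HRAS, the called list genes with the largest absolute log2 fold change (at most 3 in each direction per list and comparison), the 3 nearest protein-coding genes on each side of a member, and the 3 genes most correlated with a member on log2(CPM + 0.5) at a mean of at least 10 CPM. Replicates of M2 differed least, with a chi-square of 6.65 per degree of freedom against 113 to 295 in the other lines, above sampling noise, and were counted as 2 samples.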

Additional observations from a re-analysis of the deposited data

How the results depend on the processing

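Of 540 combinations of a tested gene, a comparison and an alternative, 464 kept the direction and the side of the threshold, 29 turned the direction, 29 gained a call and 18 lost it; the cause was not tested. The number of the 6 genes called in M2 against M1 was 0 under every alternative run. In M3 against M1 (1) it was 2 with no filter, 0 under the exchanged labels and 3 with no fold rule, and 1 to 1 with each library left out. In M4 against M1 (1) it was 2 with DESeq2, 2 with no filter, 0 in a fit of 2 lines, 0 under the exchanged labels and 0 without both unsettled libraries, and 0 to 2 with each library left out. In M3 against M2 (1) it was 0 under the exchanged labels and 0 without both unsettled libraries, and 0 to 1 with each left out. In M4 against M2 (0) it was 2 with DESeq2, no filter, a fit of 2 lines or the exchanged labels, 1 with the replicate block, and 0 to 2 with each left out. In M4 against M3 (1) it was 3 with DESeq2 or no filter, 2 with the replicate block, a fit of 2 lines, no fold rule or without both unsettled libraries, 0 under the exchanged labels, and 0 to 2 with each left out. Replicate numbers did not pair the samples over all lines. Replicate deviations correlated by 0.274 for M3 and M4, above the set threshold of 0.1, and by -0.0727 to 0.0102 for the other pairs of lines. With the replicate block edgeR called LRIG3 in M4 against M2 (-1.20, adjusted p = 0.0198) and M4 against M3 (-1.25, adjusted p = 0.0232). The block changed no other count of members called. Under the exchanged labels the log2 fold change turned to -0.050 (EGFR), 0.14 (ERBB2), 0.21 (ERRFI1) and 1.21 (LRIG1) in M2 against M1, to 0.019 (LRIG1) in M3 against M1, to -0.0069 (EGFR) in M4 against M1, to -0.054 (LRIG3) in M3 against M2, and to 0.043 (EGFR), -0.24 (ERBB2) and -0.19 (ERBB3) in M4 against M2. Without both unsettled libraries it turned to 0.19 (ERRFI1) and 0.29 (LRIG1) in M2 against M1, 0.12 (LRIG1) in M3 against M1 and 0.018 (ERRFI1) in M4 against M1. With each library left out it crossed 0 for EGFR in M4 against M1 (-0.013 to 0.24) and M4 against M2 (-0.18 to 0.066), ERBB3 in M4 against M2 (-0.31 to 0.49), ERRFI1 in M2 against M1 (-0.20 to 0.15), M4 against M1 (-0.43 to 0.081) and M4 against M2 (-0.39 to 0.11), LRIG1 in M2 against M1 (-1.66 to 0.24), M3 against M1 (-1.98 to 0.12) and M3 against M2 (-0.99 to 0.42), and LRIG3 in M2 against M1 (-0.33 to 0.85), M3 against M1 (-0.20 to 0.97) and M3 against M2 (-0.28 to 0.44). Over all genes the calls were 622 in M2 against M1 (0 to 1788 over the alternatives), 2494 in M3 against M1 (219 to 3918), 3821 in M4 against M1 (1559 to 5779), 765 in M3 against M2 (83 to 1880), 2567 in M4 against M2 (927 to 4096) and 1897 in M4 against M3 (598 to 3091). The count of ligands called ran from 0 to 4 in M2 against M1, 2 to 7 in M3 against M1 and 4 to 8 in M4 against M1. Depth limited ERBB4 alone among the members.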

Other observations

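For each member 3 to 6 of the nearest protein-coding genes were tested, and whether they moved with it was not tested. GRB7, an adaptor of receptor tyrosine kinases whose gene lies beside ERBB2 on chromosome 17, was at 16.4 and 15.8 CPM (M1), 9.05 and 8.50 (M2), 25.9 and 13.9 (M3) and 74.9 and 37.4 (M4). It was called higher in M4 than in M1 (log2 fold change 1.80 ± 0.37, edgeR adjusted p = 0.0101), M2 (2.68 ± 0.39, adjusted p = 0.00385) and M3 (1.497 ± 0.37, adjusted p = 0.0326), while ERBB2 was not called in any of these comparisons. PGAP3, also beside ERBB2, was called lower in M3 (-1.25 ± 0.25, adjusted p = 0.0116) and in M4 (-1.60 ± 0.25, adjusted p = 0.00312) than in M1. Of the 6 tested genes nearest to ERBB3 on chromosome 12, edgeR called 0 in M3 against M1, against 13.5% of all genes; 2 had an unadjusted p under 0.05 and DESeq2 called 0. In M4 against M1 edgeR called 2 of the 6 lower, against 11.2% of all genes, SUOX, a sulfite oxidase (-1.10 ± 0.19, adjusted p = 0.00434), and RPL41, a ribosomal protein (-1.13 ± 0.25, adjusted p = 0.0128), and DESeq2 also called 2.

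Beside EGFR on chromosome 7, VOPP1 was called higher than M1 in M3 (1.64 ± 0.35, adjusted p = 0.0167) and in M4 (1.91 ± 0.36, adjusted p = 0.00681), and SEC61G in M3 (1.28 ± 0.30, adjusted p = 0.0212). Beside LRIG1 on chromosome 3, ADAMTS9, a secreted metalloprotease, was called lower in M4 than in M1 (-3.53 ± 0.95, adjusted p = 0.0281), at means of 2.50 and 28.9 CPM, and SUCLG2 lower in M4 than in M2 (-1.02 ± 0.16, adjusted p = 0.00495). Beside LRIG3 on chromosome 12, SLC16A7, a monocarboxylate transporter, was called lower in M4 than in M1 (-3.27 ± 0.73, adjusted p = 0.0135), M2 (-2.80 ± 0.72, adjusted p = 0.0299) and M3 (-2.68 ± 0.72, adjusted p = 0.0419), and AVIL was called lower in M3 than in M1 (-2.07 ± 0.51, adjusted p = 0.0260). Beside ERBB4 on chromosome 2, LANCL1 was called lower in M4 than in M2 (-1.04 ± 0.12, adjusted p = 0.00167). Copy number was not measured in these files, and its part in these values was not tested.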
